A study of Homo sapiens with 2 samples.

Results

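The genes described here were 10 transcription factors of the B cell lineage, chosen by name from the 18930 genes of the deposited RNA-seq table. They were the 6 plasma cell factors IRF4, XBP1, PRDM1, POU2AF1, IKZF1 and IKZF3, and the 4 B cell factors PAX5, BCL6, SPIB and BACH2. All 10 had reads in both libraries, and all 10 passed the filter of at least 10 reads over both. The series holds 2 bulk RNA-seq libraries, 1 labelled DR (dacarbazine-resistant) and 1 labelled WT (wild type), both labelled as A375, an established human melanoma cell line. The labels give DMEM with serum as its medium, whereas the paper's methods give RPMI-1640 for tumour cells. Dacarbazine, written DTIC in the paper and DITC in the labels, alkylates DNA, and the labels give 105 days of it for both libraries, the WT one included. With 1 library per label there was no replicate check. Every interval below therefore covers read counting only, and every difference is one between these libraries and not between conditions.

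In the B lineage, PAX5 holds cells in the B cell state, and BCL6 and BACH2 are repressors that keep activated B cells from becoming plasma cells. PRDM1, which encodes BLIMP-1, represses PAX5 and other B cell genes, IRF4 drives the switch and is needed by plasma cells and myeloma cells, and XBP1 builds the secretory apparatus. PRDM1 and the B cell factors PAX5, BCL6 and BACH2 oppose each other, and mature B cells and plasma cells are known to differ in them. No such opposition is meant for POU2AF1, IKZF1 and IKZF3, whose levels do not by themselves mark a plasma cell. In melanocytes, IRF4 acts with MITF in pigmentation, and XBP1 is used by most cell types under secretory stress.

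The count columns were given to the labels by the sample descriptions, which differ from each other by a single punctuation mark and name no condition, both being closer to the title of the DR sample. All directions rest on them. The libraries held 54878310 (DR) and 35294629 (WT) reads. The labelled cell type was checked against marker genes. Reads were scaled to library size as CPM, and levels are given per gene length as RPKM, the CPM value divided by the gene length of the table in kilobases. Of 10 melanocytic markers, 8 had counts, and 0 of these in the DR-labelled library and 1 in the WT-labelled library lay above the median of all genes tested, which was 6.46 and 6.403 RPKM. SOX10, a defining factor of melanocytic cells, had 3 reads and 0 reads, TYRP1 had 0 and 17, and PAX3 had 8 and 1, where 0 reads allows up to 3. The melanocytic markers summed to 61.6 and 64.9 CPM. MITF had 3.64 and 3.66 RPKM. GPNMB, the one above the median in the WT-labelled library, had 5.93 and 7.29 RPKM. PMEL had 248 and 82 reads, and MLANA had 123 and 89. Of 10 plasma cell markers, 9 lay above that median in each library, and they summed to 4531 and 5104 CPM. JCHAIN, which joins IgM and IgA into polymers, stood at 1507 and 2185 RPKM, and SDC1, the plasma cell surface proteoglycan CD138, had 117.4 and 180.04 RPKM. In the T and NK cell list 0 of 8 markers lay above the median in either library, and in the myeloid list 1 and 0 of 8. SOX10, TYRP1 and PAX3 were thus nearly absent, while MITF, GPNMB, PMEL and MLANA were detected at low to middling levels. Most plasma cell markers were abundant. The values of SOX10 and of the plasma cell markers go against the labels. The libraries are named by their labels only. In bulk RNA, fewer cells of a type and less RNA per cell cannot be told apart.

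The deposited table holds no sequence. For 8 of the 10 factors RefSeq (GRCh38.p14) gave 13 windows of 250 bases upstream of a transcription start, and IKZF3 and POU2AF1 had none there. Shown are IRF4 and XBP1, the factors with most reads in both libraries, and PAX5 and BCL6, the lowest per gene length in both. The windows are chr6:391502-391751 on the plus strand for IRF4, chr22:28800570-28800819 on the minus strand for XBP1, chr9:37034269-37034518 on the minus strand for PAX5, and chr3:187745469-187745718 on the minus strand for BCL6. For XBP1 and BCL6 this is 1 of 2 windows listed. Capitals mark TATAAA in IRF4, the endoplasmic reticulum stress element (ERSE) in XBP1, the core GAGGAA of PU.1 and SPIB sites in PAX5, read on the other strand, and TTCNNNGAA, the core of STAT and BCL6 sites, in BCL6.
IRF4: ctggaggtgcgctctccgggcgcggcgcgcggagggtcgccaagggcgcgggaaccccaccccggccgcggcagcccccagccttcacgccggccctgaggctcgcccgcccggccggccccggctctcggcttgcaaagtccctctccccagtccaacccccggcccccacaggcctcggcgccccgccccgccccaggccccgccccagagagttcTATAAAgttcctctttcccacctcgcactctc
XBP1: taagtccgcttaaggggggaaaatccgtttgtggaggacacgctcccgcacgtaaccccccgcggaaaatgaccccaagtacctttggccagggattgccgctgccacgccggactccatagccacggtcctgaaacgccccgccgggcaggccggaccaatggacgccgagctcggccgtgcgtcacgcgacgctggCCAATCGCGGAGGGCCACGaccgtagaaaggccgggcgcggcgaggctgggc
PAX5: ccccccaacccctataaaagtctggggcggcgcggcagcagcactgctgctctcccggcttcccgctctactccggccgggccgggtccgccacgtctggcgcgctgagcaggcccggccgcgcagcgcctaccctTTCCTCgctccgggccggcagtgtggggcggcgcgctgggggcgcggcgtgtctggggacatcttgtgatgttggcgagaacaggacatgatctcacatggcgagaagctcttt
BCL6: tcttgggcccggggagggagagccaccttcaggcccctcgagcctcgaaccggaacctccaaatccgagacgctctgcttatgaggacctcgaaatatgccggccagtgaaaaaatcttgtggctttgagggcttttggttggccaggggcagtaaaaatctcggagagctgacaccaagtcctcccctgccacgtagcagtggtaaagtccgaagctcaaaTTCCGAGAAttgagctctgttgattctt

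Matches of 8 motifs were searched on both strands of these windows and of all 35116 upstream windows in the RefSeq table. The ERSE, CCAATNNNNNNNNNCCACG, was in 1 of the 13 windows, that of XBP1, 52 bases upstream of the start, and in 0.074% of all windows. Its end CCACG, which the ERSE contains, was in 33.5% of all windows. TTCNNNGAA was in 1 window, that of BCL6, 28 bases upstream, against 6.57% of all windows. TATAAA was in the windows of IRF4 (32 bases upstream), SPIB (29 bases upstream), PAX5 and 1 of 3 of IKZF1, against 10.7%. The octamer ATTTGCAT, bound by the POU2F proteins that POU2AF1 joins, was in none of the 13 and in 1.63% of all. The Ikaros core TGGGAA was found in 20.85%, GAGGAA in 23.57% (with matches at IRF4, PRDM1, IKZF1 and PAX5) and TGANTCA, read by AP-1 and, within longer sites, by BACH2, in 6.57% of all windows. By base composition, the windows of IRF4 and BACH2 were 76% and 73.6% G and C, against a median of 58%, and that of BACH2 held 40 CG pairs, against a median of 11. A match is a run of letters and does not show that a factor binds.

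In both libraries the 6 plasma cell factors lay above all 4 B cell factors per gene length. The median of the plasma cell factors was 95.6 RPKM in the DR-labelled library and 93.4 RPKM in the WT-labelled library, and that of the B cell factors was 1.79 and 1.59 RPKM, a ratio of medians of 53.5 and 58.7. All 6 plasma cell factors exceeded the median of all genes tested in both libraries, and 0 of the 4 B cell factors did. The nearest factors across the gap were IKZF3 and BACH2 at 15.2 and 3.52 RPKM in the DR-labelled library, a 4.34-fold step, and IKZF3 and SPIB at 10.1 and 2.09 RPKM in the WT-labelled library, a 4.84-fold step. Of the reads of the 10 factors, 98.1% and 98.8% belonged to the plasma cell factors, shares that gene length also sets. The median plasma cell factor stood at percentile 95.5 and 94.0 by level among the 16210 genes tested, and the median B cell factor at percentile 31.7 and 31.95.

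**Figure D1:**
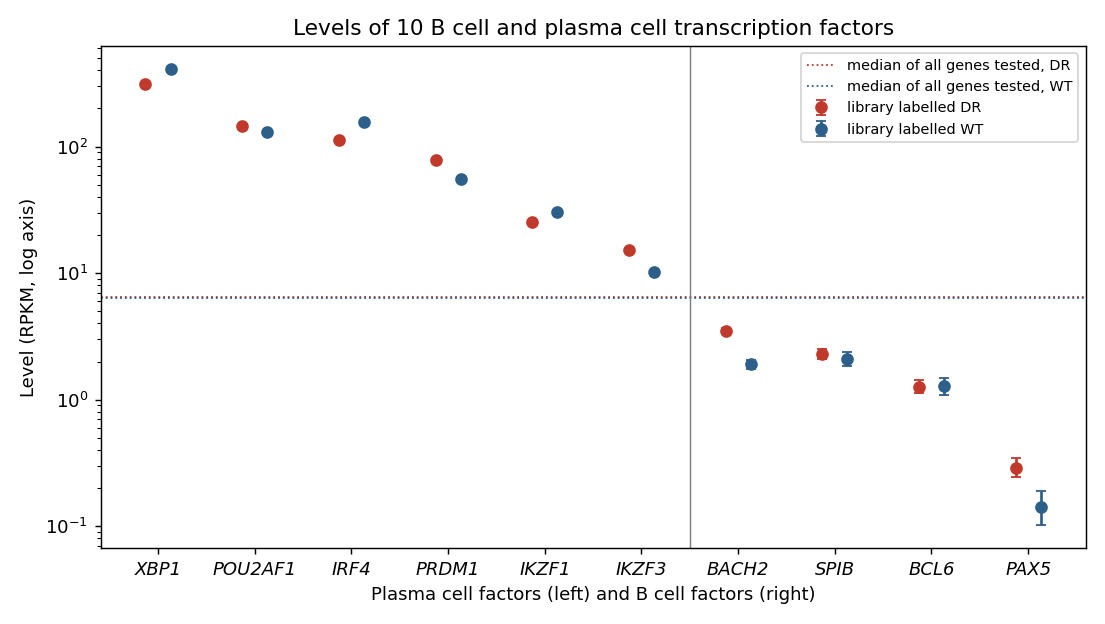
Level of each factor in RPKM on a log axis, red for the library labelled DR and blue for the library labelled WT, with 95% exact Poisson intervals for read counting that are narrower than most points, and dotted lines at the median of all genes tested. The plasma cell factors at the left, from XBP1 at 314.3 and 406.9 RPKM down to IKZF3 at 15.2 and 10.1, lie above the lines, and the B cell factors at the right lie below them.

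The order of the factors was nearly the same in both libraries. By level it ran XBP1, POU2AF1, IRF4, PRDM1, IKZF1, IKZF3, BACH2, SPIB, BCL6 and PAX5 in the DR-labelled library, and each neighbouring pair had Poisson intervals that lay apart. In the WT-labelled library IRF4 stood above POU2AF1, at 155.9 against 131.4 RPKM, and SPIB (2.09 RPKM, interval 1.84 to 2.36) and BACH2 (1.91 RPKM, interval 1.75 to 2.07) could not be ordered beyond counting error.

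None of the 10 factors differed by 2-fold or more between the libraries. Differences are in log2(CPM + 0.5), DR-labelled minus WT-labelled, after scaling by edgeR's TMM method, and a gene was called where this was at least 1 in size. Of all genes tested, 11.6% were called, 7.48% higher and 4.16% lower in the DR-labelled library, so a count of 0 among 10 genes is not set apart from the background. The factors spread from -0.47 for IRF4 to 0.86 for BACH2, around a median over all genes of 0.01. The 6 plasma cell factors split evenly, 3 above and 3 below 0, with a median of -0.05. Of the B cell factors 3 were above 0, with a median of 0.47. Setting the factors side by side, the intervals of 37 of 45 pairs lay apart, and each set held factors that differed from each other beyond counting error.

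**Figure D2:**
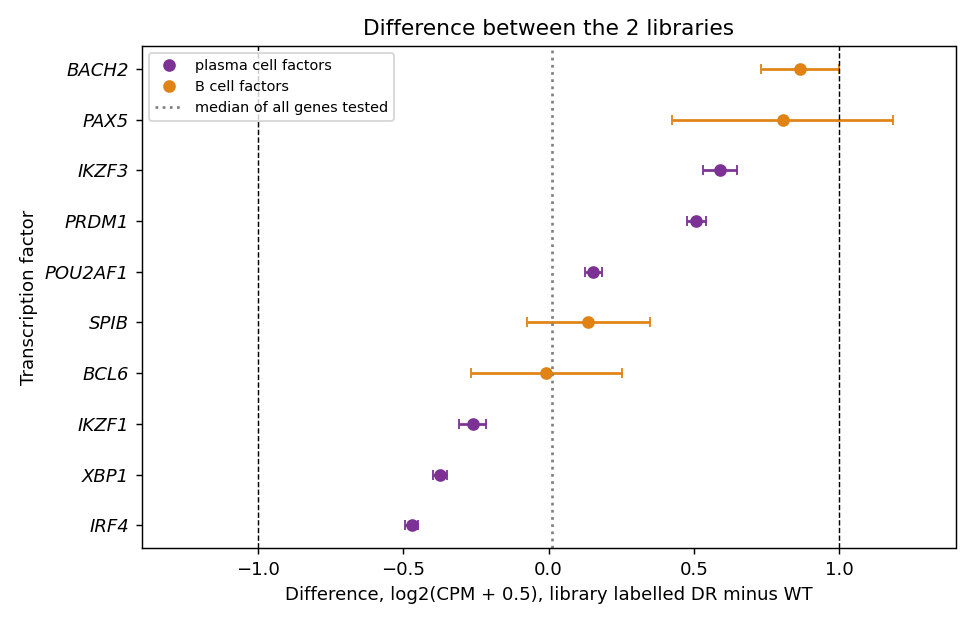
Difference of each factor between the libraries in log2(CPM + 0.5), library labelled DR minus library labelled WT, with 95% Clopper-Pearson intervals for read counting. Dashed lines mark 2-fold and the dotted line the median of all genes tested. All 10 points lie inside the dashed lines, IRF4, XBP1 and IKZF1 to the left and PRDM1, IKZF3, PAX5 and BACH2 to the right, while the interval of PAX5 (0.42 to 1.19) crosses the right one.

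IRF4 (NCBI Gene 3662), the interferon regulatory factor on which plasma cells depend, had 33335 reads in the DR-labelled library and 28982 in the WT-labelled library, which is 599.97 and 831.4 CPM. It had the most reads of the 10 factors in both. The difference was -0.47 (95% interval -0.49 to -0.45), and IRF4 ranked 552 and 381 by RPKM among the 16210 genes. XBP1 (NCBI Gene 7494), the transcription factor of the unfolded protein response, had 31767 and 25801 reads, or 571.8 and 740.1 CPM. The difference was -0.37 (-0.40 to -0.35). Both factors were lower in the DR-labelled library, and XBP1 ranked 164 and 142 by RPKM, the highest of the set. The XBP1 over IRF4 ratio of RPKM was 2.79 and 2.61. The table counts whole genes, so the spliced, active form of the XBP1 mRNA is not separated from the unspliced one.

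PRDM1 (NCBI Gene 639), the BLIMP-1 repressor, went the other way. It had 22398 and 9871 reads, or 403.1 and 283.2 CPM, a difference of 0.51 (0.47 to 0.54). Per gene length PRDM1 stood at 78.75 and 55.3 RPKM. IRF4 was thus 1.43 times as high as PRDM1 in the DR-labelled library and 2.82 times in the WT-labelled library. POU2AF1 (NCBI Gene 5450), the coactivator OCA-B that binds POU2F proteins on immunoglobulin promoters, had 26606 and 15003 reads, or 478.9 and 430.4 CPM. Its difference was small at 0.15 (0.12 to 0.18), with 146.3 and 131.4 RPKM.

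IKZF1 and IKZF3, encoding Ikaros and Aiolos, are zinc finger factors of lymphocytes that the drug lenalidomide marks for degradation through the cereblon ubiquitin ligase. IKZF1 (NCBI Gene 10320) had 8392 and 6315 reads, or 151.04 and 181.1 CPM, and IKZF3 (NCBI Gene 22806) had 8119 and 3380 reads, or 146.1 and 96.96 CPM. The relatives differed in opposite directions, IKZF1 by -0.26 (-0.31 to -0.21) and IKZF3 by 0.59 (0.53 to 0.65). IKZF3 had the largest difference among the plasma cell factors. The ratio of IKZF1 to IKZF3 per gene length was 1.68 in the DR-labelled library and 3.03 in the WT-labelled library.

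PAX5 (NCBI Gene 5079), which commits and keeps cells in the B cell lineage, was the lowest of the 10 factors. It had 138 and 42 reads, or 2.48 and 1.205 CPM, and 0.29 (interval 0.24 to 0.34) and 0.14 (0.10 to 0.19) RPKM. That placed it 13941 and 14542 among the 16210 genes. The difference was 0.81 (0.42 to 1.19). Without the pseudocount the ratio of CPM was 2.06 (1.45 to 2.99), past 2-fold. BACH2 (NCBI Gene 60468), a repressor of PRDM1, was the highest B cell factor in the DR-labelled library. It had 1723 and 586 reads, or 31.0 and 16.8 CPM, and 3.52 and 1.91 RPKM. Its difference of 0.86 (0.73 to 0.998) was the largest of the 10 with this pseudocount, and the interval overlapped that of PAX5. With 0.1 CPM PAX5 was larger, at 0.99 against 0.88, and without a pseudocount at 1.04 against 0.88.

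BCL6 (NCBI Gene 604), the repressor of the germinal centre, did not differ beyond counting error. It had 266 and 168 reads, or 4.79 and 4.82 CPM, with a difference of -0.01 (-0.27 to 0.25) and levels of 1.27 and 1.28 RPKM. SPIB (NCBI Gene 6689), an ETS factor of B cells related to PU.1, had 451 and 256 reads, or 8.12 and 7.34 CPM, with a difference of 0.14 (-0.08 to 0.35). Both intervals hold 0 and reach to -0.27 for BCL6 and to 0.35 for SPIB, so neither gene is shown to be equal in the libraries.

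PRDM1 exceeded the factors it is known to oppose by a wide margin in both libraries. The PRDM1 over BCL6 ratio of RPKM was 62.1 in the DR-labelled library and 43.3 in the WT-labelled library. The ratio of PRDM1 to BACH2 was 22.4 and 29.0, and that of PRDM1 to PAX5 was 271 and 393. The ratio to BCL6 was larger in the DR-labelled library and that to BACH2 in the WT-labelled library. The ratio to PAX5 is not shown to differ, since the intervals of the differences of PRDM1 and PAX5 overlapped. PAX5 had only 42 reads in the WT-labelled library. BACH2 over BCL6 was 2.77 and 1.49.

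**Figure D3:**
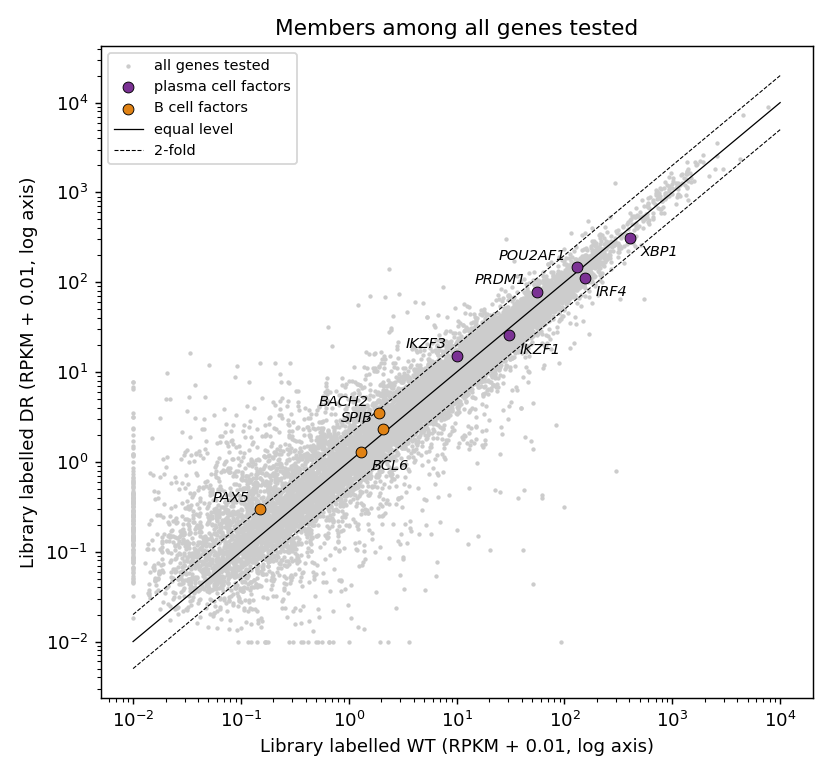
Level of each of the 16210 genes tested (grey) in the libraries labelled WT (x axis) and DR (y axis), in RPKM plus 0.01 on log axes, with the plasma cell factors in purple, the B cell factors in orange, a solid line at equal level and dashed lines at 2-fold. The plasma cell factors lie toward the upper end and the B cell factors toward the lower end, all near the solid line, with PAX5 on the upper dashed line since no CPM pseudocount is used here.

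Other B cell transcription factors did not all sit low. Of 13, 7 lay above the median level in the DR-labelled library and 8 in the WT-labelled library, 1 was called higher and 2 lower, against 7.48% and 4.16% of all genes. The median difference was 0.07, against 0.01 over all genes. POU2F2, the OCT-2 protein that POU2AF1 joins, had 700 and 75 reads and was higher in the DR-labelled library by 2.30 (2.01 to 2.60). SOX4, a factor of early B cells, had 461 and 2318 reads and was lower by the largest margin, -2.93 (-3.07 to -2.79). FOXO1, a factor of early and germinal centre B cells, had 950 and 1526 reads (-1.33, interval -1.45 to -1.22). EBF1, which acts with PAX5 in B cell commitment, had 58 and 44 reads, or 0.15 and 0.18 RPKM.

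Relatives of the factors were also read. Of 13 genes of the Ikaros, IRF and POU2F families with BACH1, 3 were called higher in the DR-labelled library and 0 lower, against 7.48% and 4.16% of all genes, with a median of 0.12. Among them were IRF5 at 1.06 (0.98 to 1.14) and IRF7 at 1.06 (0.90 to 1.23), which serve interferon induction. At the other end, POU2F3 had 24 and 40 reads, a difference of -0.82 (-1.23 to -0.38). IRF4 stood above every other IRF gene of that list per gene length in both libraries, the highest being IRF3 at 63.1 and 62.9 RPKM.

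B cell genes that PAX5 is known to activate included 4 that were higher in the DR-labelled library. Of 12 such genes 11 were tested, and 4 of these were called higher and 0 lower, against 7.48% and 4.16% of all genes, with a median difference of 0.79. MS4A1, the antigen CD20, had 157 and 8 reads and a difference of 2.19 (1.76 to 2.51). CD79B, CD79A and CIITA, parts of the B cell receptor and the master regulator of MHC class II, differed by 1.25 (1.0005 to 1.51), 1.06 (0.66 to 1.45) and 1.19 (1.09 to 1.30). Of the defining B cell markers, CD22 was nearly absent, with 7 and 4 reads. FCER2 and BLK, by contrast, had 53.4 and 40.6 RPKM and 38.3 and 27.4 RPKM. The part of PAX5 in these differences was not tested.

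Genes listed as induced by XBP1 for protein secretion lay high in both libraries. All 21 were above the median level in both, at a median of 77.1 and 69.7 RPKM, and 0 of 21 were called, against 11.6% of all genes, with a median difference of 0.09. The highest value was that of ERN1, at 0.57 (0.53 to 0.61). ERN1 encodes the sensor IRE1 that splices the XBP1 mRNA, so it acts upstream of XBP1 although the list includes it. The most negative was that of SEC24D, a coat protein of export vesicles, at -0.54 (-0.59 to -0.48). XBP1 itself was lower in the DR-labelled library. Of the 21 genes 14 were above 0 and 7 below, against 8277 and 7933 of 16210 over all genes. The intervals of some, SEC61A1 and SEC61B among them, held 0, so their signs are within counting error. Of the 7 genes of the cereblon ligase 0 were called, against the same 11.6%. They ranged from UBE2D3 at -0.50 to DDB1 at 0.19, and CRBN, the cereblon gene, had 9.68 and 8.53 RPKM.

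**Figure D4:**
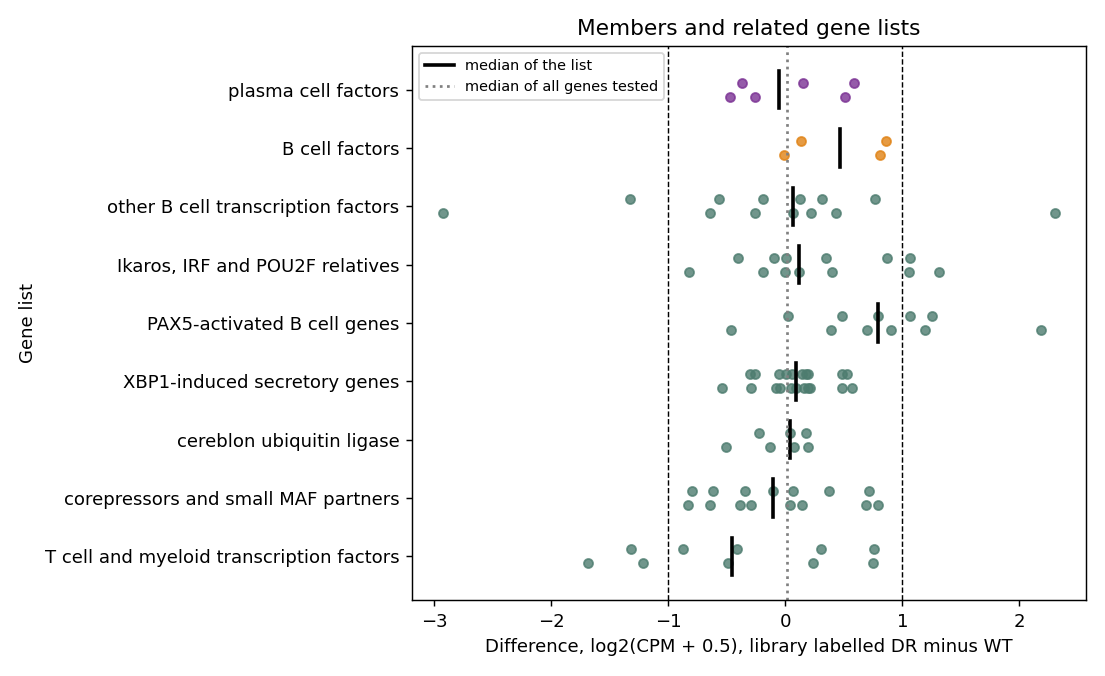
Difference between the libraries in log2(CPM + 0.5), library labelled DR minus library labelled WT, for every tested gene of 9 lists, 1 point per gene with a black bar at the median of the list, dashed lines at 2-fold and a dotted line at the median of all genes. The plasma cell factors, the B cell factors and the XBP1-induced genes stay inside the dashed lines, while MS4A1 (2.19), POU2F2 (2.30) and SOX4 (-2.93) lie far outside.

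Cell type markers beyond those above moved with the libraries in part. In the plasma cell list DERL3 (1.08, interval 1.01 to 1.15) and MZB1 (1.01, interval 0.97 to 1.04) were called higher in the DR-labelled library and 0 genes lower. The interval of MZB1 crossed the 2-fold line. These were 2 of 10 genes, against 7.48% of all genes, with a median of 0.17 and SDC1 lowest at -0.62. In the mature B cell list all 7 tested genes were above 0, against 8277 of 16210 over all genes. They ran from CD22 at 0.03 (-0.36 to 0.34), a sign within counting error, to MS4A1. Of these 7, 1 was called higher, against 7.48% of all genes. That list shares 7 of its 8 genes with the PAX5-activated genes, and its summed level was 195.3 and 135.2 CPM. Among the melanocytic markers 0 of 6 tested were called, against 11.6% of all genes, with PMEL highest at 0.80. TYRP1, at 0 and 17 reads, was lowest and passed the read filter only through the WT-labelled library. Among the T and NK cell markers 0 of 8 were called, against the same 11.6%. They ran from KLRD1 at -0.38 to CD3E at 0.58, with CD2 at 12 and 3 reads and sums of 20.6 and 22.6 CPM. The myeloid markers summed to 38.3 and 24.6 CPM. Of 6 tested, 1 was called higher, CD33 at 1.30, against 7.48% of all genes, with LYZ lowest at 0.20. FCGR3A had 2 and 1 reads, and MPO had 1 and 0. Of 6 fibroblast markers only 2 were tested, and both were called higher, against 7.48% of all genes. COL1A1 had 572 and 109 reads and PDGFRB 209 and 1, so PDGFRB passed the read filter only through the DR-labelled library. COL1A2 had 1 and 0 reads, and COL3A1 had 0 and 1. The part of these cell types in the values of PAX5, BACH2 and the other factors was not tested.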

How the data were processed

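Bulk RNA was sequenced from 1 library labelled DR and 1 labelled WT. The authors deposited estimated counts per gene, not scaled for depth or length, with a gene length, annotation and the ratio, p-value and q-value of their own comparison, which were not used. The submitters' processing notes name Bowtie 0.12.2 and hg19 without a role; the counting tool and strand setting are not given in the sources used here, so overlapping and antisense genes cannot be told apart. Of the 10 factors, 7 had fractional counts.

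Estimated counts were rounded. They summed to 54878310 (DR) and 35294629 (WT), so that 3 reads are worth 0.054 and 0.0861 CPM. Columns were matched to samples by description. Genes without a count (663) and those under 10 reads over both libraries (2057) were left out, and 16210 remained. Libraries were scaled by TMM in edgeR 4.0.16 (R 4.3.3; factors 1.01 and 0.988). A pseudocount of 0.5 CPM was added, and genes past 2-fold were called. With 1 library each, edgeR's quasi-likelihood test has no residual degrees of freedom, and no p-value is given. Intervals (95%, Clopper-Pearson for differences, exact Poisson for levels; SciPy 1.17.1) cover counting error only, and reads without molecular identifiers are not independent molecules. The calculation was tested on simulated data. Alternatives were other scalings (totals, DESeq2 1.42.0), filters, pseudocounts and thresholds. The members and lists were chosen with earlier results of these data known. Named were all members, the genes at both ends of each list and markers with 3 reads or fewer; the others were chosen after their values were seen. No gene is named for a like pattern, since 2 libraries give 1 difference per gene. Some genes that this rule names are not reported here. TYR, S100B and CEBPE were not analysed here, and DCN and LUM had no count.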

Additional observations from a re-analysis of the deposited data

How the results depend on the processing

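No paired analysis was possible because each label has 1 library, and for the same reason no library could be left out. None of the 10 factors passed 2-fold with library totals, DESeq2's size factors, a pseudocount of 0.1 CPM or counts as deposited. The other planned settings also gave 0, but none of them could have added a factor. A pseudocount of 5 CPM, the whole interval past 2-fold and a 4-fold threshold are stricter than the main setting. No filter and at least 50 reads change nothing for the factors, since all 10 pass both. Without a pseudocount, a setting chosen after seeing the data, 1 factor passed, PAX5 (1.04), by construction, since the pseudocount shrinks low genes; 1 was then higher and 0 lower, against 1946 and 1047 of all genes. The 1212 genes higher and 674 lower in the main setting became 423 and 333 with 5 CPM and 339 and 189 at 4-fold. With 5 CPM the differences of PAX5 and BACH2 shrank to 0.27 and 0.72. The median of the B cell factors ranged from 0.18 (5 CPM) to 0.51 (no pseudocount). The difference of BCL6 crossed 0, to 0.02, with library totals, and stayed within its interval; the other 9 kept their sign under each scaling and pseudocount. Totals moved IRF4 to -0.43, XBP1 to -0.34, PRDM1 to 0.54 and POU2AF1 to 0.19, outside their counting intervals. By level without length the median percentile of the plasma cell factors was 98.2 and 97.1 and that of the B cell factors in the WT-labelled library 34.6, and without a filter the B cell factors stood at 39.4 and 39.6, since more low genes were ranked. The 6 plasma cell factors lay above every B cell factor with and without length, an order that the filter cannot alter. Depth limits PAX5, BCL6 and SPIB most, and 1 library per label gives no estimate of the spread between cultures.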

Other observations

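Partner proteins of the repressors were read as a further list. Of 15 corepressors and small MAF proteins, 0 were called, against 11.6% of all genes, with a median difference of -0.11. BCOR, a corepressor that BCL6 recruits, lay toward the low end at -0.79 (-0.83 to -0.75). The small MAF protein MAFF, a kind of partner of BACH2, had the highest value at 0.79 (0.60 to 0.99).

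Transcription factors of T cells and myeloid cells lay above the median level for 2 of 11 genes with counts in the DR-labelled library and 3 in the WT-labelled library. Of 12, 10 were tested and 3 were called lower in the DR-labelled library, with 0 higher, against 4.16% and 7.48% of all genes, and the median was -0.45. These were GFI1, BCL11B and LEF1. GFI1, a transcriptional repressor that acts in blood cell development, had 5.39 and 17.7 RPKM (-1.69, interval -1.80 to -1.58). LEF1 had 6.76 and 15.9 RPKM (-1.21, interval -1.32 to -1.10). BCL11B had 30 and 73 reads, or 0.07 and 0.27 RPKM (-1.32), and its interval of -1.69 to -0.92 crossed the 2-fold line. CEBPA, a myeloid factor, had 81 and 23 reads, the highest difference of the list at 0.76 (0.32 to 1.17).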
